A study of Homo sapiens with 48 samples.

Results

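The electrophile defence genes of the NRF2 pathway were taken as 9 genes: NFE2L2 and KEAP1, which form its switch, and the targets HMOX1, NQO1, GCLC, GCLM, TXNRD1, GSR and SRXN1. They were chosen by gene symbol, with earlier results of these data known, and looked up by Ensembl identifier in the deposited counts per gene. Of the 9, 8 were found among the 14685 genes tested, and SRXN1, which reduces overoxidized peroxiredoxins, was not analysed here. The identifiers were ENSG00000100292 (HMOX1), ENSG00000181019 (NQO1), ENSG00000001084 (GCLC), ENSG00000023909 (GCLM), ENSG00000198431 (TXNRD1), ENSG00000104687 (GSR), ENSG00000116044 (NFE2L2) and ENSG00000079999 (KEAP1). Under T-REX, 1 of these 8 genes, HMOX1, passed the test against a control, at 12 h and of the 3 controls against DMSO, where its level was 1.63-fold higher (95% confidence interval 1.34 to 1.98, n = 4 libraries in each arm). In that comparison 10.9% of all genes were called, so that 1 of 8 members is near the background. More tests of members passed when the deposited factors of unwanted variation were used as covariates, as given below. For GCLC and GSR the confidence intervals of all 9 comparisons with controls lay within 1.2-fold. Over time, 2 to 5 of the 8 members per arm were called lower at 12 h than at 3 h. Of all 14685 genes, 2697 to 3085 per arm were called lower, and 38.8% to 42.3% in either direction. Whether the members differ from this background was not tested.

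NRF2, the product of NFE2L2, is a transcription factor of the bZIP family that KEAP1 binds and hands to a ubiquitin ligase for degradation. Electrophiles such as 4-hydroxynonenal (HNE), an aldehyde formed when lipids are oxidized, can modify cysteines of KEAP1, so that NRF2 is no longer degraded, enters the nucleus and binds antioxidant response elements with small MAF partners. The genes it switches on make and recycle glutathione, run the thioredoxin system and break down haem and quinones, and this control acts on NRF2 protein and is not read directly from NFE2L2 or KEAP1 mRNA.

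All libraries came from HEK293T cells, a human embryonic kidney line, into which a plasmid for a fusion of NCBP1 with Halo had been transfected (NCBP1 is the larger of the proteins that bind the mRNA cap in the nucleus). In the T-REX arm the cells were given Ht-PreHNE, a photocaged HNE that attaches to Halo, and then light, which frees HNE beside the fusion protein. The study's T-REX methods, which cover the RNA-seq plates, name the alkyne form of this probe, which frees an alkyne analogue of HNE. The 3 controls were light alone, probe alone (the probe and no light) and DMSO (vehicle, neither probe nor light). For light alone the sample labels name UV, while the study's methods list both the probe and light, which as written is the treatment of the T-REX arm. Which of these holds was not settled here, and it bears on every value that involves this arm. The plasmid was present in every arm, and no arm had untransfected cells or HNE added to the medium. RNA was collected 3, 6 and 12 h after the reaction from 4 replicates per arm and time, described as independent biological replicates, giving 48 libraries. The question put to these members was whether HNE released at NCBP1 moved the genes known for answering electrophiles, and whether any such move differed from those between the controls.

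Total counts per library ran from 23952455 to 37099535 (median 29405598.5), TMM factors from 0.954 to 1.06, and NCBP1 (plasmid and endogenous gene together) took 3.09% to 8.99% of the counts. No pair of replicate libraries agreed within sampling noise (72 pairs, lowest chi-square over degrees of freedom 3.15, highest 46.5). Of 8 HEK293T marker genes 6 were among the genes tested, with VIM at a median of 519 CPM and LHX1, the lowest, at 2.13 CPM (the count scaled to the size of the library, with TMM factors). Of 8 markers of other cell types 1 was among the genes tested, COL1A1, at 2.09 to 6.18 CPM over the 48 libraries.

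The promoters were searched for the core of the antioxidant response element, TGACNNNGC, on both strands, since it is the sequence through which NRF2 acts. Its first letters are also those of the AP-1 motif TGACTCA, so that matches to the 2 motifs can overlap. The RefSeq promoter windows (GRCh38.p14) ran from 250 bases before to 50 bases after each transcription start and covered 6 of the 8 members tested, with 9 windows, while HMOX1 and GSR had no entry. The core lay in 4 of these 9 windows, in GCLM, TXNRD1 (both of its promoters) and KEAP1, against 13.3% of all 35116 windows and 18 of 80 windows of the other pathway genes. The windows of NQO1, GCLC and NFE2L2 did not hold these letters, and sequence farther from the start was not searched. The matches, with 10 bases on each side, are printed along the gene's strand with the core in capitals, which reads as the reverse complement where the match is on the opposite strand.
GCLM chr1:93909446-93909474, minus strand: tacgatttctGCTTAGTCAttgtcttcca
TXNRD1 chr12:104215670-104215698, plus strand: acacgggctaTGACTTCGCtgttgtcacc
TXNRD1 chr12:104215761-104215789, plus strand: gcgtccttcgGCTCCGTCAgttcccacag
TXNRD1 chr12:104286920-104286948, plus strand: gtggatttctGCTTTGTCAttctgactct
KEAP1 chr19:10502807-10502835, minus strand: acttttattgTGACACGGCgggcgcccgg
KEAP1 chr19:10502784-10502812, minus strand: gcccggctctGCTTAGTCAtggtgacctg
The GCLM core and the second KEAP1 core had the same 9 letters. The GCLM core lay 34 to 26 bases before the start, and the 2 TXNRD1 cores of its first promoter lay 99 to 91 bases before the start and across it. These matches describe the sequence, and binding was not measured here.

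Levels between genes were compared as CPM per kb of exon (GENCODE 29 exon lengths). NFE2L2 stood at a median of 15.4 CPM per kb over the 48 libraries (12.9 to 17.7) and TXNRD1, the cytosolic thioredoxin reductase, at 15.3 (11.5 to 19.6). GSR, which regenerates reduced glutathione, followed at 10.7 (9.29 to 13.1), GCLM at 9.73 (7.81 to 11.7), HMOX1 at 9.14 (5.16 to 13.6) and GCLC at 7.68 (6.56 to 8.53). Neighbours in this order down to GCLC had overlapping ranges. KEAP1 at 4.55 CPM per kb (3.04 to 6.33) lay below every library of GCLC, and NQO1, a quinone reductase, at 1.07 (0.636 to 1.46) lay below every library of KEAP1. NQO1 thus rested on 61 to 145 counts per library, where counting error alone reaches 12.8%, against 948 or more counts for GSR, GCLM, GCLC, TXNRD1 and NFE2L2. In a bulk sample, a lower level may mean fewer cells with the transcript or less of it per cell, which cannot be told apart.

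**Figure D1:**
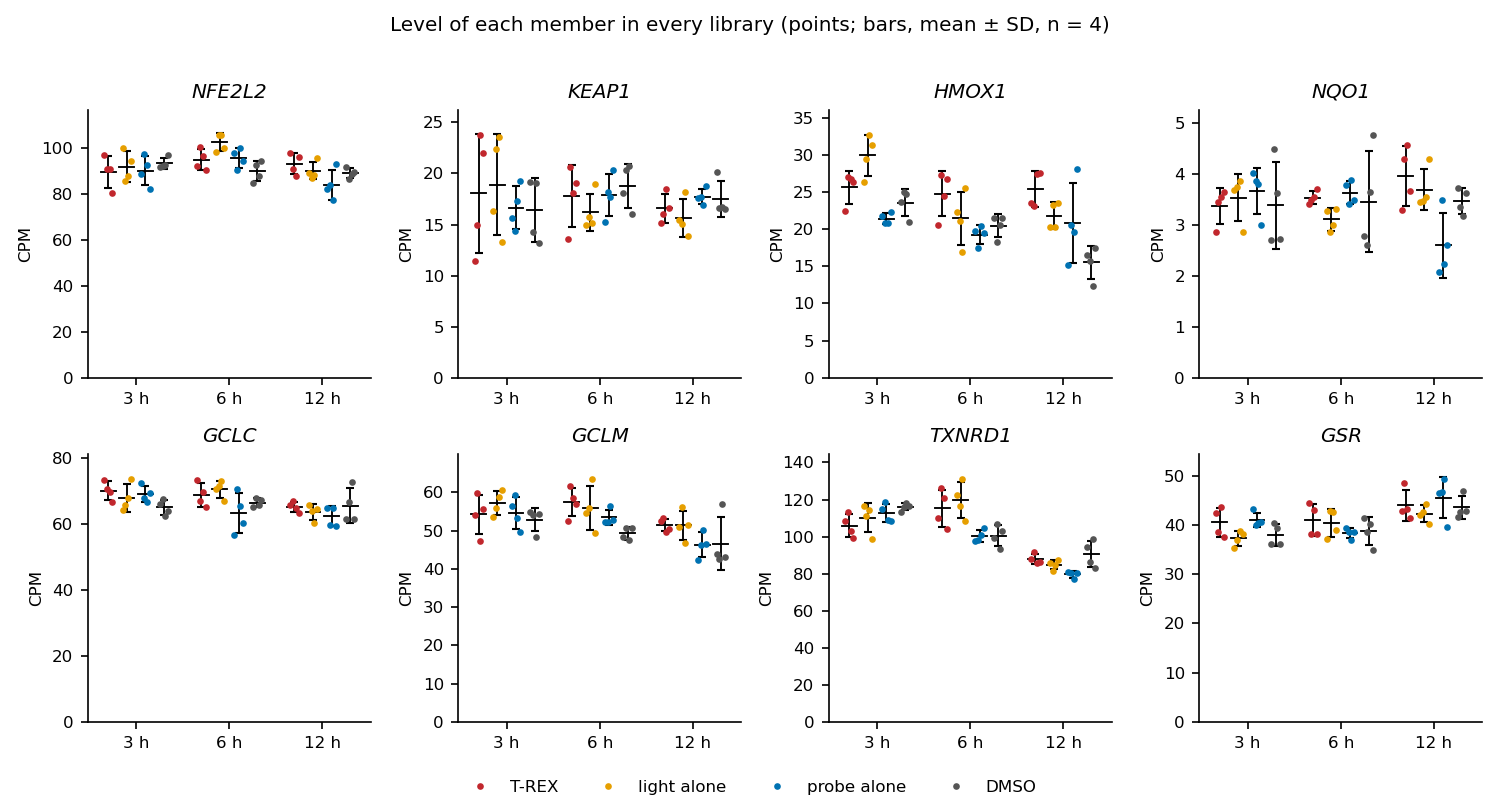
Level of the 8 members in CPM (linear axis from 0) in each of the 48 libraries, grouped by time and coloured by arm, with the mean and SD of 4 libraries. The DMSO libraries of HMOX1 at 12 h sit between 12.4 and 17.5 CPM, below the 4 T-REX libraries of that time at 23.1 to 27.5 CPM, and all 16 libraries of TXNRD1 at 12 h lie at or below 98.5 CPM.

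The regulators NFE2L2 and KEAP1 were not called between T-REX and any control. NFE2L2 under T-REX read 96.8, 90.6, 90.8 and 80.2 CPM at 3 h, 92.0, 100.5, 96.6 and 90.4 CPM at 6 h, and 97.7, 90.8, 87.9 and 96.1 CPM at 12 h, and these values overlapped those of each control at each time. Its 9 log2 fold changes against controls ran from -0.11 to 0.15, and the lowest and highest bounds of their 95% confidence intervals were -0.22 and 0.27. KEAP1 was less precisely measured, above all at 3 h, where the 4 T-REX libraries read 11.4, 14.9, 23.8 and 22.0 CPM and the 4 light alone libraries 16.3, 22.4, 23.6 and 13.2 CPM. Its biological coefficient of variation fell from 23.0% at 3 h to 11.6% at 6 h and 8.94% at 12 h, and its intervals reached 0.669-fold and 1.57-fold, bounds that both come from 3 h. At 6 and 12 h they were narrower, and 7 of the 9 lay within 1.5-fold. The study's own splicing analysis lists KEAP1 for alternative first exon use at 3 h, and counts per gene do not resolve such events.

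Each T-REX group served in the comparisons with all 3 controls of its time, so these are not independent. At 3 h, 0 of 24 tests of members against controls passed in edgeR's quasi-likelihood fit after Benjamini-Hochberg adjustment, and 0 passed in DESeq2 or limma-trend, while 3 of the 24 had an unadjusted p of at most 0.05. Of all genes tested, 0.197%, 1.05% and 5.99% were called relative to light alone, probe alone and DMSO. HMOX1, haem oxygenase 1, which degrades haem, read 22.4, 27.0, 26.7 and 26.3 CPM under T-REX and 26.3, 29.4, 32.7 and 31.3 CPM with light alone. It read 21.7, 20.8, 20.8 and 22.3 CPM with probe alone and 23.7, 24.9, 24.7 and 20.9 CPM with DMSO. The light alone arm was the highest of the 4, and T-REX lay between it and probe alone without touching the latter. The log2 fold change of HMOX1 under T-REX was -0.23 relative to light alone (95% confidence interval -0.40 to -0.05, adjusted p = 0.199). Relative to probe alone it was 0.26 (0.09 to 0.43, adjusted p = 0.103), and relative to DMSO 0.12 (-0.05 to 0.29, adjusted p = 0.412), or 0.06 without DMSO replicate 4. TXNRD1 under T-REX read 99.0 to 113 CPM and lay below all 4 DMSO libraries at 114 to 118 CPM, with a log2 fold change of -0.13 that did not pass (adjusted p = 0.151). The arms did not overlap for 11.9% of all genes in this comparison with DMSO, and for 8.72% in that with probe alone.

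At 6 h, again 0 of 24 tests passed in edgeR, DESeq2 or limma-trend, 5 of them having an unadjusted p of at most 0.05, while 0.218%, 0.109% and 0.415% of all genes were called relative to light alone, probe alone and DMSO. HMOX1 read 20.6, 27.2, 24.5 and 26.7 CPM under T-REX and 22.3, 21.2, 16.9 and 25.5 CPM with light alone. It read 19.7, 17.5, 20.4 and 19.5 CPM with probe alone and 21.6, 18.2, 20.6 and 21.5 CPM with DMSO, and the T-REX libraries lay above all those of probe alone but overlapped the other arms. Its log2 fold change was 0.36 against probe alone (0.14 to 0.59, adjusted p = 0.363), 0.28 against DMSO (0.05 to 0.50, adjusted p = 0.282) and 0.21 against light alone (-0.02 to 0.43, adjusted p = 0.458), or 0.11 without light alone replicate 3. Of all genes, 6.37% did not overlap between T-REX and probe alone at 6 h, and 7.93% between T-REX and DMSO. GCLM, the modifier subunit of glutamate-cysteine ligase, which carries out the first step of glutathione synthesis, read 52.6, 61.6, 58.7 and 57.1 CPM under T-REX, above DMSO at 48.4, 50.8, 47.5 and 50.6 CPM. That difference, 0.22 on the log2 scale (0.08 to 0.36), did not pass (adjusted p = 0.159). TXNRD1 differed from probe alone and from DMSO by 0.20 each (adjusted p = 0.433 and 0.175), and light alone, where TXNRD1 read 108 to 131 CPM, stood as high as T-REX at 104 to 126 CPM.

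At 12 h, 1 of 24 tests passed, with DMSO as the control, and 5 of the 24 had an unadjusted p of at most 0.05. Of all genes, 1.29% were called relative to light alone, 0.701% relative to probe alone and 10.9% relative to DMSO. The called member was HMOX1, which read 23.4, 23.1, 27.4 and 27.5 CPM under T-REX and 16.5, 15.8, 12.4 and 17.5 CPM with DMSO. The 2 arms did not overlap, as was so for 13.5% of all genes, and T-REX was near its own level at 3 h, while DMSO was lower than at 3 h. The log2 fold change was 0.70 (0.43 to 0.98, adjusted p = 0.00207), and 198 of the 14685 genes had a smaller p in this comparison. HMOX1 was 0.22 higher than with light alone (-0.06 to 0.49, adjusted p = 0.527) and 0.29 higher than with probe alone (0.01 to 0.56, adjusted p = 0.427), and neither passed. The difference from probe alone was 0.16 without probe alone replicate 1 and 0.46 without replicate 4. The probe alone libraries at 12 h were the most spread, at 15.2, 20.6, 19.6 and 28.0 CPM. Against DMSO, the call was made in each of the 8 fits that left out 1 library of the 2 arms (log2 fold change 0.61 to 0.77) and under all 8 alternative settings (0.70 to 0.72).

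NCBP1 moved with the arms in the same comparison, at 58794.5 ± 5356 CPM under T-REX and 35440.5 ± 4502 CPM with DMSO at 12 h (mean ± SD, n = 4). With light alone it stood at 41352 ± 6918 CPM and with probe alone at 60609 ± 10235 CPM. Over the 48 libraries, with the mean of each time point subtracted, HMOX1 and NCBP1 had a Pearson r of 0.35, given as a description of libraries that share their depth and normalization. The part of NCBP1 in the HMOX1 difference was not tested.

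NQO1 at 12 h read 3.28, 4.30, 4.56 and 3.67 CPM under T-REX and 2.07, 3.48, 2.23 and 2.60 CPM with probe alone. The log2 fold change of 0.60 (0.23 to 0.97) did not pass (adjusted p = 0.143). Light alone and DMSO read 3.16 to 4.29 CPM, so that 3 of the 4 probe alone libraries lay below every library of the other arms. GCLC, the catalytic subunit of glutamate-cysteine ligase, and GSR had the tightest bounds. For GCLC, the 9 log2 fold changes of T-REX against controls ran from -0.04 to 0.12 with intervals between 0.892-fold and 1.19-fold. For GSR they ran from -0.05 to 0.12 with intervals between 0.872-fold and 1.19-fold, so that a 1.2-fold change of either gene lay outside all 9 intervals. Within 1.2-fold lay 8 of 9 intervals of NFE2L2, 7 of TXNRD1, 6 of GCLM, 1 of KEAP1 and 0 of HMOX1 and NQO1, and within 1.5-fold lay all 9 of GCLM, TXNRD1 and NFE2L2. With the 2 deposited factors of unwanted variation (RUV) as covariates, 3, 5 and 5 of the 24 tests at 3, 6 and 12 h passed. The share of all genes called under this setting is not given here, so these counts have no background beside them. For HMOX1 the tests that passed at 3 h were a lower level than with light alone (-0.23) and a higher one than with probe alone (0.26). At 6 h they were higher levels than with probe alone and DMSO (0.36 and 0.28), and at 12 h the comparison with DMSO already called. The remaining tests that passed were of other members, whose names and directions under this setting are not given here.

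**Figure D2:**
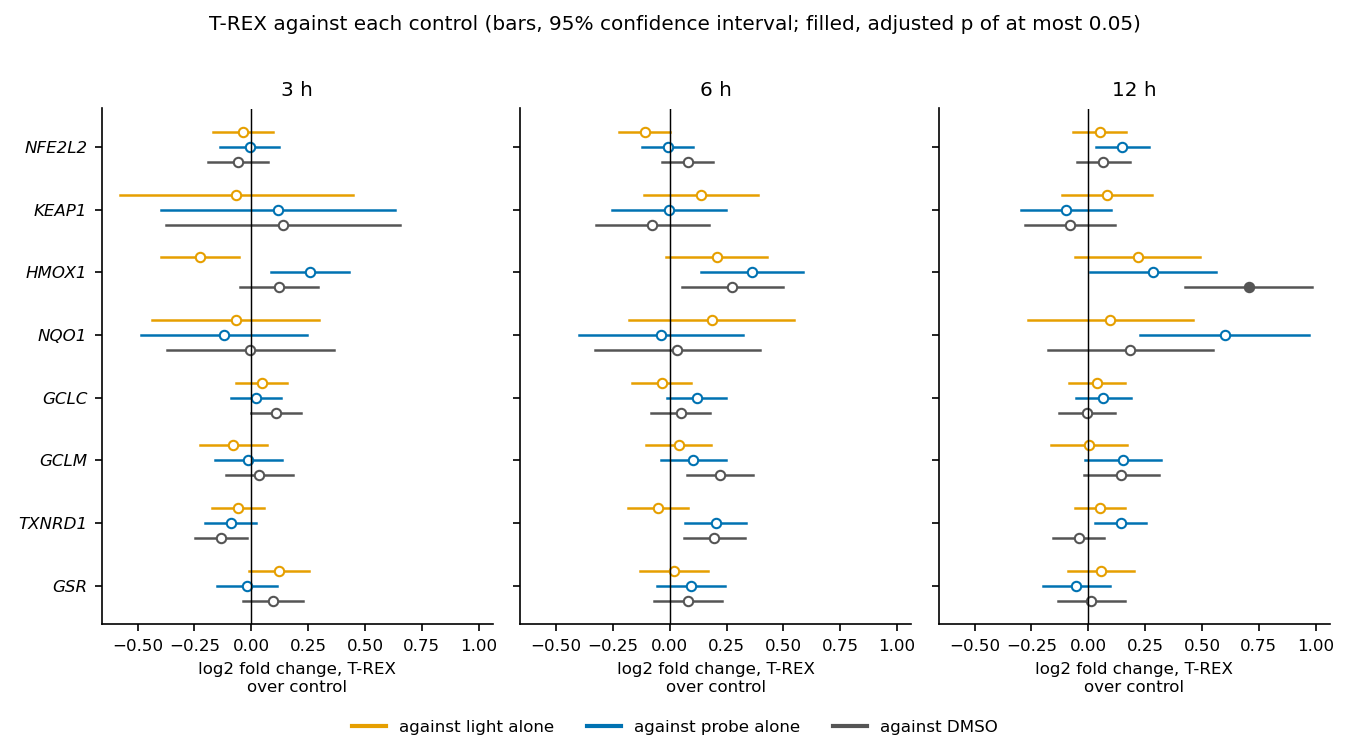
Log2 fold change of T-REX over each control (x axis, linear) for the 8 members at 3, 6 and 12 h, with 95% confidence intervals from edgeR's fit of 16 libraries per time. Filled points passed an adjusted p of 0.05, which 1 of 72 did (HMOX1 against DMSO at 12 h, 0.70), and the intervals of NQO1, and of KEAP1 at 3 h, are the widest.

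The controls were compared with one another to show how far the members differed between arms other than T-REX. At 3 h, HMOX1 was called higher in the light alone arm than under probe alone (log2 fold change 0.48, 95% confidence interval 0.31 to 0.66, adjusted p = 0.0144), the 1 member called in the 3 comparisons of controls at that time. Over all genes, 0.232% were called between light alone and probe alone, 0.00681% between light alone and DMSO and 0.00681% between probe alone and DMSO. The 4 libraries of each arm did not overlap, at 26.3 to 32.7 CPM and 20.8 to 22.3 CPM, as was so for 9.17% of all genes. The call was lost on leaving out light alone replicate 2 or 3 (adjusted p = 0.0596 and 0.103) and without probe alone replicate 1 or 3 (adjusted p = 0.0651 and 0.0753), with log2 fold changes of 0.44 to 0.49. HMOX1 was also higher with light alone than with DMSO by 0.35, which did not pass (adjusted p = 0.257) but was called by DESeq2, and the libraries of these arms did not overlap, like those of 5.84% of all genes.

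At 6 h, 0 of 24 tests between controls passed in edgeR and limma-trend and 1 in DESeq2 (TXNRD1, light alone over DMSO), 5 having an unadjusted p of at most 0.05 in edgeR, beside 0.00681% of all genes called between light alone and DMSO, 0.0272% between probe alone and DMSO and 0.0613% between light alone and probe alone. TXNRD1 was 0.25 higher on the log2 scale with light alone than with DMSO and also than with probe alone (adjusted p = 0.153 and 0.197), and its light alone libraries lay above all 8 of the others, where 4.96% of all genes did not overlap between light alone and DMSO and 4.18% between light alone and probe alone. Without light alone replicate 4, TXNRD1 was called against DMSO. NFE2L2 read 98.4, 106, 106 and 99.9 CPM with light alone and 84.9, 92.4, 87.9 and 94.2 CPM with DMSO, a difference of 0.19 that did not pass (adjusted p = 0.162).

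At 12 h, TXNRD1 was lower with probe alone than with DMSO by 0.18 on the log2 scale (-0.30 to -0.07, adjusted p = 0.0476), the 1 member called between controls, while 0.0136%, 5.11% and 0.415% of all genes were called between light alone and DMSO, between probe alone and DMSO, and between light alone and probe alone. Probe alone read 80.8, 80.2, 77.0 and 80.5 CPM and DMSO 94.2, 86.4, 98.5 and 83.0 CPM, without overlap, as was so for 9.69% of all genes. The call was lost without any 1 library of these arms other than DMSO replicate 4 (adjusted p = 0.0517 to 0.135), and in 4 of 8 alternative settings. HMOX1 was higher than DMSO at 12 h in the other controls too, by 0.49 with light alone (0.21 to 0.77, adjusted p = 0.298) and by 0.42 with probe alone (0.14 to 0.70, adjusted p = 0.072), and neither passed, although DESeq2 called the latter. All 4 DMSO libraries of HMOX1 at 12 h lay below all 4 light alone libraries, at 20.2 to 23.5 CPM, and 3.86% of all genes did not overlap between these arms.

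Later times were compared with 3 h within each arm in 1 fit of all 48 libraries. The CPM values were scaled within each time, so their differences between times need not match the log2 changes of this fit exactly. Of 64 such tests of members, 18 passed, 17 of them lower and 1 higher at the later time. The time points were separate collections, so time and any handling that differed between them cannot be told apart. At 6 h, 0 of 8 members were called in the T-REX arm, 2 in light alone, 1 in probe alone and 1 in DMSO, beside 23.3%, 25.3%, 21.5% and 16% of all genes. At 12 h, 2 of 8 were called in the T-REX arm, 4 in light alone, 5 in probe alone and 3 in DMSO, beside 41.7%, 39.4%, 42.3% and 38.8% of all genes. The members' median log2 change at 12 h was -0.09 in the T-REX arm, -0.17 in light alone, -0.19 in probe alone and -0.08 in DMSO, where that of all genes was between -0.0130 and 0.00974.

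TXNRD1 was called lower at 12 h in all 4 arms. Under T-REX it read 108, 113, 103 and 99.0 CPM at 3 h and 87.9, 91.5, 85.5 and 86.5 CPM at 12 h, and with DMSO 114, 116, 118 and 116 CPM at 3 h and 94.2, 86.4, 98.5 and 83.0 CPM at 12 h. No library of 12 h reached a library of 3 h of its arm, and the share of all genes for which this held was not computed. TXNRD1 fell by 0.31 under T-REX (adjusted p = 1.55e-05), by 0.42 with light alone (adjusted p = 6.77e-08), by 0.57 with probe alone (adjusted p = 3.92e-11) and by 0.41 with DMSO (adjusted p = 1.19e-07), on the log2 scale. At 6 h it was already lower with probe alone (-0.18, adjusted p = 0.0166) and DMSO (-0.21, adjusted p = 0.00797), while T-REX (0.12, adjusted p = 0.111) and light alone (0.12, adjusted p = 0.124) were not called. The call with probe alone at 6 h was lost without probe alone replicate 2 at 3 h (adjusted p = 0.0888) or replicate 1 at 6 h (adjusted p = 0.0629).

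HMOX1 was lower at 12 h than at 3 h with DMSO (-0.65, 95% confidence interval -0.89 to -0.41, adjusted p = 2.28e-05) and with light alone (-0.50, -0.73 to -0.26, adjusted p = 0.000604), and lower at 6 h with light alone (-0.48, adjusted p = 0.00195). It was not called under T-REX (-0.06, -0.30 to 0.18, adjusted p = 0.72) or with probe alone (-0.10, -0.34 to 0.13, adjusted p = 0.511). The 3 calls were also made in every fit that left out 1 library of the groups compared. Those at 12 h were made in 7 of 7 alternative settings. The call with light alone at 6 h was made in 6 of 7 and lost with the replicate number as a block.

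The subunits of glutamate-cysteine ligase were each called lower at 12 h in 3 of 4 arms. GCLM fell by 0.30 on the log2 scale with probe alone (adjusted p = 0.00106), by 0.24 with DMSO (adjusted p = 0.0113) and by 0.20 with light alone (adjusted p = 0.0328), and was not called under T-REX (-0.12, adjusted p = 0.203). GCLC fell by 0.21 with probe alone (adjusted p = 0.00184), by 0.15 under T-REX (adjusted p = 0.0295) and by 0.14 with light alone (adjusted p = 0.0497). It was not called with DMSO (-0.04, adjusted p = 0.609), where the CPM scaled within each time averaged 65.1 at 3 h and 65.6 at 12 h. NQO1 fell by 0.56 with probe alone (adjusted p = 0.00615), from 4.01, 3.86, 3.80 and 3.00 CPM at 3 h to 2.07, 3.48, 2.23 and 2.60 CPM at 12 h, where 1 library of 12 h lay inside the range of 3 h.

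NFE2L2 was higher at 6 h with light alone (0.16, adjusted p = 0.0403) and lower at 12 h with probe alone (-0.16, adjusted p = 0.0197), and no change of KEAP1 or GSR passed. Of the 18 calls over time, 11 were made in every fit that left out 1 library of the groups compared and 7 were lost in at least 1, while 12 were made under all alternative settings and 6 were lost under at least 1. With limma-trend, 4 were lost at 12 h, those of GCLC under T-REX and with light alone (adjusted p = 0.139 and 0.19), GCLM with light alone (adjusted p = 0.0967) and NFE2L2 with probe alone (adjusted p = 0.156). NFE2L2 with light alone was lost without replicate 2 or 3 at 3 h or 6 h (adjusted p = 0.0993 to 0.17), and with probe alone without replicate 2 or 3 at 3 h or replicate 3 at 12 h (adjusted p = 0.051 to 0.141). GCLC under T-REX was lost without replicate 1 or 2 at 3 h or replicate 3 or 4 at 12 h (adjusted p = 0.0588 to 0.0977). GCLC with light alone was lost without replicate 3 or 4 at 3 h or replicate 2, 3 or 4 at 12 h (adjusted p = 0.0592 to 0.243), where its log2 change was -0.09 without replicate 4 at 3 h. GCLM with light alone was lost without replicate 3 or 4 at 3 h or replicate 1, 3 or 4 at 12 h (adjusted p = 0.0519 to 0.135), and with DMSO without replicate 2 at 12 h (adjusted p = 0.0556).

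**Figure D3:**
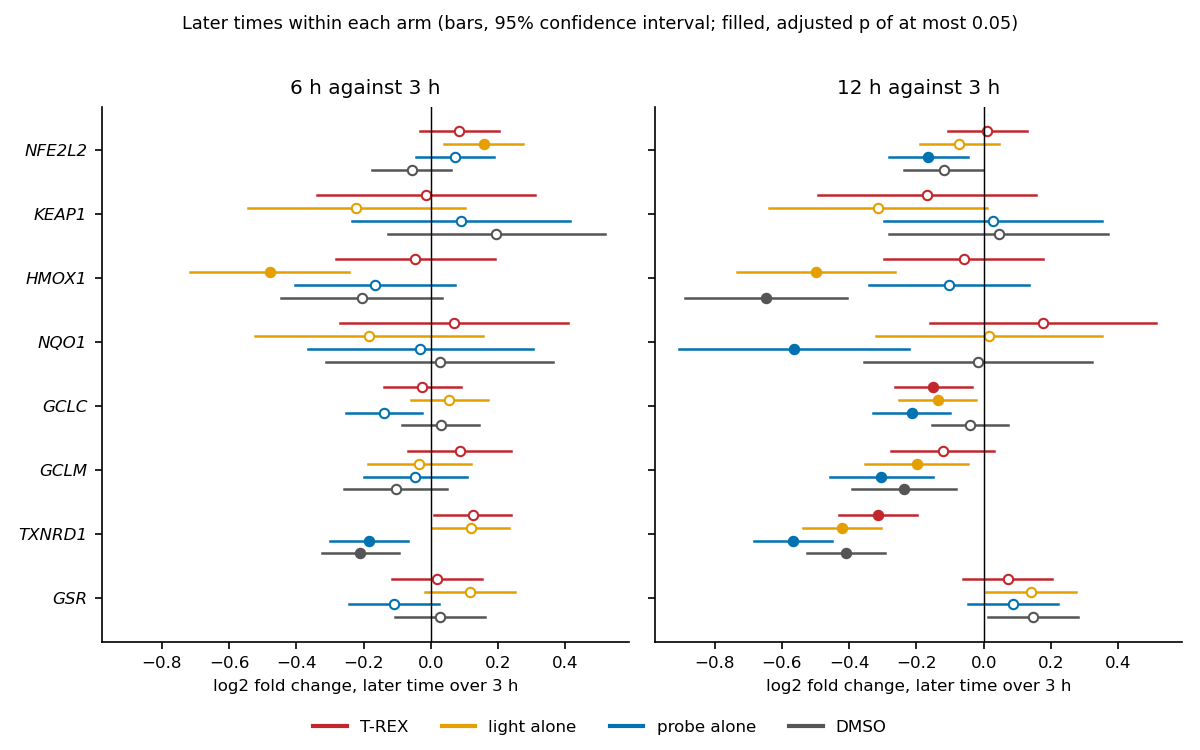
Log2 fold change of 6 h and 12 h over 3 h within each arm (x axis, linear) for the 8 members, with 95% confidence intervals from edgeR's fit of 48 libraries. Filled points passed an adjusted p of 0.05. At 12 h the 4 points of TXNRD1 sit between -0.57 and -0.31, all filled, while those of HMOX1 run from -0.65 (DMSO) to -0.06 (T-REX).

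Whether the T-REX difference itself changed with time was tested with interaction terms in the same fit, and 0 of 48 tests of members passed (8 had an unadjusted p of at most 0.05), against 1 in DESeq2 (TXNRD1 against DMSO, 6 h minus 3 h). Few genes of any kind passed these tests. From 3 to 6 h, 0%, 0% and 0.0136% of all genes were called relative to light alone, probe alone and DMSO, and from 3 to 12 h 0.0204%, 0.0681% and 0.00681%. For HMOX1 the T-REX difference from DMSO was 0.59 larger at 12 h than at 3 h (95% confidence interval 0.25 to 0.92, adjusted p = 0.159), so that the call over time with DMSO and not under T-REX was not shown to be a difference between these arms. For NQO1 against probe alone the 12 h difference was 0.74 larger (0.26 to 1.22, adjusted p = 0.181), and for TXNRD1 against DMSO the 6 h difference was 0.33 larger (0.17 to 0.50, adjusted p = 0.0823).

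The rest of the pathway was read from 6 lists, of which 71 of 82 genes were among those tested. They cover regulators of NRF2 and partners or rivals at its element (14 genes), glutathione (18), thioredoxin and peroxiredoxins (10), NADPH supply (6), haem and iron (8) and the clearance of aldehydes and xenobiotics (15). The lists group genes by function, and whether NRF2 controls each of them in these cells was not tested. Relative to light alone, probe alone and DMSO, respectively 0, 0 and 2 of the 71 were higher and 0, 1 and 4 lower under T-REX at 3 h. At 6 h, 1 was higher against each control and 0 lower. At 12 h, 1, 1 and 6 were higher and 1, 0 and 8 lower. The shares of all genes called, in the same order of controls, were 0.197%, 1.05% and 5.99% at 3 h, 0.218%, 0.109% and 0.415% at 6 h, and 1.29%, 0.701% and 10.9% at 12 h. The median log2 fold change over the 71 genes lay between -0.04 and 0.07 in the 9 comparisons, where that of all genes lay between -0.00185 and 0.0309.

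SLC7A11, the cystine importer that feeds glutathione synthesis, was the gene called against each control at 6 h, and it was called against each again at 12 h. It read 159, 156, 144 and 163 CPM under T-REX at 6 h, where the 12 control libraries read 76.5 to 106 CPM, and 158, 135, 126 and 130 CPM at 12 h against 64.0 to 101 CPM. Every T-REX library lay above every control library at both times. Against light alone, probe alone and DMSO taken singly, 5.71%, 6.37% and 7.93% of all genes did not overlap at 6 h. At 12 h these shares were 12.7%, 8.85% and 13.5%, and the share for the 3 controls together was not computed. The log2 fold changes at 12 h were 0.77, 0.73 and 0.90 relative to light alone, probe alone and DMSO (adjusted p = 0.000957, 0.00257 and 9.79e-05). The 3 controls did not differ from each other beyond log2 fold changes of -0.05 to 0.17 at any time, and none of those passed. Within arms, SLC7A11 fell from 3 to 12 h by 0.50 with light alone, by 0.43 with probe alone and by 0.63 with DMSO (adjusted p = 0.000483, 0.00235 and 2.57e-05), and its change under T-REX was -0.10 (-0.32 to 0.13, adjusted p = 0.513). In the interaction tests 0 of the 18 genes of the glutathione list were called, so a difference between arms in the change over time was not shown. At 3 h its mean was already 142 CPM under T-REX and 106 to 111 CPM in the controls, with no call. The 2 subunits of glutamate-cysteine ligase, which use the imported cystine after its reduction, were not called between T-REX and any control. Whether NRF2 had a part in the SLC7A11 difference was not tested.

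IDH1, which makes NADPH in the cytosol, was lower under T-REX at 3 h than with probe alone (-0.39, adjusted p = 0.00675) and DMSO (-0.24, adjusted p = 0.0327), at 37.2 ± 0.657 CPM against 48.6 ± 3.38 and 43.8 ± 2.73 CPM (mean ± SD, n = 4). Light alone at 3 h was lower in IDH1 than probe alone too (-0.30, adjusted p = 0.0458). GSTM3, a glutathione transferase, was lower under T-REX at 12 h than with light alone (-0.30, adjusted p = 0.0374) and DMSO (-0.23, adjusted p = 0.0391), at 29.2 ± 0.522 CPM against 35.8 ± 2.26 and 34.3 ± 3.04 CPM. No other gene of the 71 was called in the same direction against 2 controls at a time.

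The remaining calls under T-REX were against DMSO. In the thioredoxin list at 12 h, 5 of 10 genes were lower and 1 higher, beside 10.9% of all genes called (601 higher and 997 lower of 14685). The 5 were TXN, which is thioredoxin, and the peroxiredoxins PRDX1, PRDX3, PRDX4 and PRDX6. PRDX3, the mitochondrial peroxiredoxin, had the smallest adjusted p of the list (-0.32, standard error 0.070, adjusted p = 0.00406). The list's median was -0.19 against DMSO, -0.14 against light alone and -0.02 against probe alone, with 0 genes called against the latter 2, and PRDX1 and PRDX6 were also called lower in probe alone than in DMSO at 12 h. Genes named here beside counts other than PRDX3 and PRDX6 were chosen after their values were seen.

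CBR1, a carbonyl reductase, was lower at 12 h under T-REX (-0.52, standard error 0.094, adjusted p = 0.000951) and with probe alone (-0.35, adjusted p = 0.0285) than with DMSO. MAFG, a small MAF partner of NRF2 (0.34, adjusted p = 0.0138), and FTH1, the ferritin heavy chain (0.21, adjusted p = 0.0217), exceeded DMSO under T-REX at 12 h. At 3 h against DMSO, CHAC1, which degrades glutathione, was higher (1.05, standard error 0.279, adjusted p = 0.0343), as was PIR (0.47, adjusted p = 0.0329). FBXW11, an adaptor of a ubiquitin ligase (-0.19, adjusted p = 0.0231), PRDX6 (-0.26, adjusted p = 0.00884) and SLC40A1, the iron exporter ferroportin (-0.66, adjusted p = 0.0348), were lower. At 6 h the lists other than glutathione held no call, and their smallest adjusted p-values belonged to BACH2 (0.101), ME1 (0.124), FECH (0.148), TXNRD3 (0.173) and TRIM16L (0.31).

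**Figure D4:**
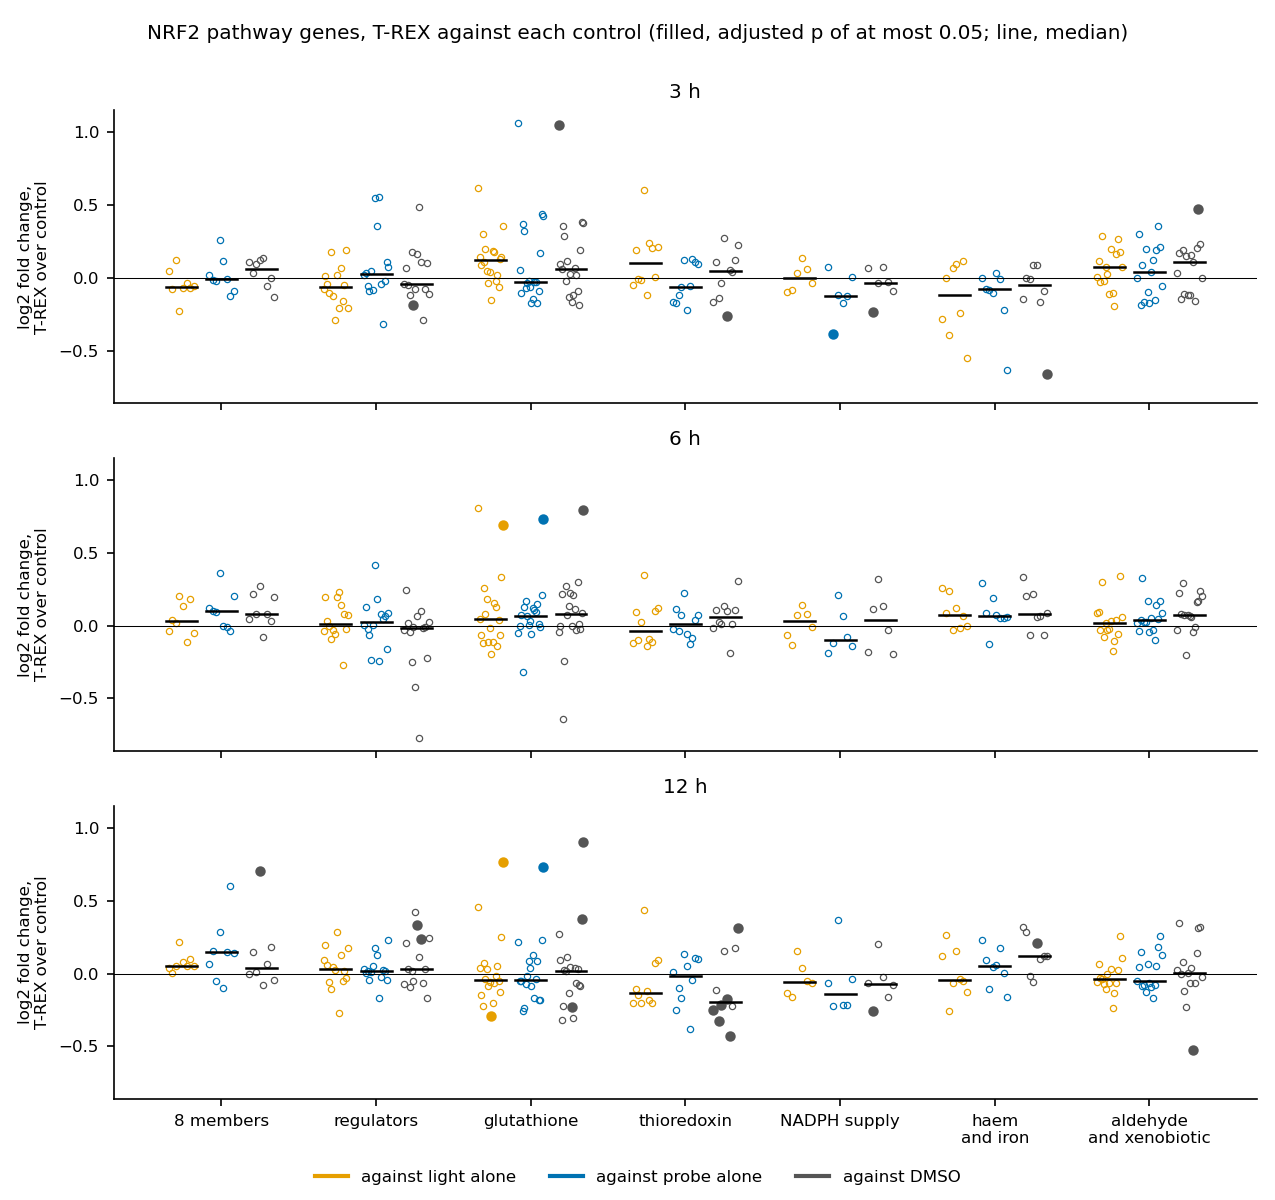
Log2 fold change of T-REX over each control (y axis, linear) at 3, 6 and 12 h for the 8 members and the 71 tested genes of 6 NRF2 pathway lists, 1 point per gene, coloured by control. Filled points passed an adjusted p of 0.05 and the short line is the list's median. SLC7A11 gives the 3 filled points of the glutathione list at 6 h (0.69 to 0.80), and 6 filled points of the thioredoxin list at 12 h are against DMSO.

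Over the 48 libraries, with the mean of each time point subtracted from log2 CPM, the 8 members did not move as 1 group. The 28 pairs had a median Pearson r of 0.067, from -0.44 (NFE2L2 and KEAP1) to 0.55 (NFE2L2 and TXNRD1), and 17 were above 0. TXNRD1 and GCLM had an r of 0.44, GCLC and GSR 0.42 and GCLC and GCLM 0.39, while HMOX1 reached 0.27 at most, with NQO1. These values describe libraries that share arms, depth and normalization, and no test was made of them.

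**Figure D5:**
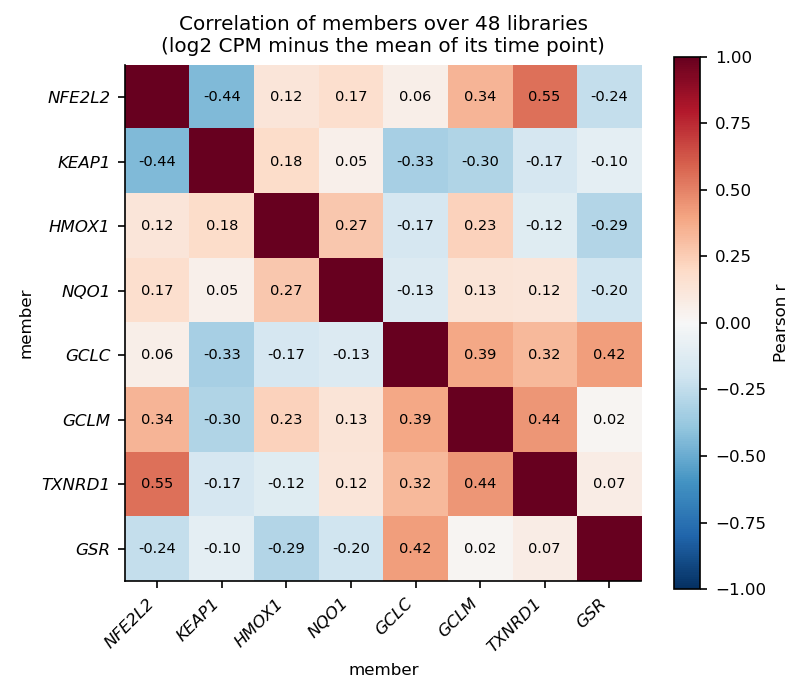
Pearson r between members over 48 libraries (colour scale from -1 to 1), on log2 CPM with the mean of each time point subtracted. NFE2L2, TXNRD1, GCLM and GCLC share mostly positive values (highest 0.55), and KEAP1 is negative with NFE2L2 (-0.44), GCLC (-0.33) and GCLM (-0.30).

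The genes whose levels ran closest to each member by the same measure were all outside the members and the pathway lists. HMOX1 was closest to SH2B3 (r = 0.75) and DNAH1 (0.74), TXNRD1 to ARL2BP (0.77) and SLC38A2 (0.75), and GCLM to OGFRL1 (0.75) and DENND1B (0.72). KEAP1 ran with PACS2 (0.88) and PLXNA1 (0.87), GSR with BTF3 (0.69) and RPS23 (0.66), and GCLC with ADAT2 (0.65) and AADAT (0.64). NFE2L2 was closest to NCOA4 (0.62) and SLC25A44 (0.61), and NQO1 to PRADC1 (0.55) and ZNF689 (0.51). The members also varied with measures of the library, as KEAP1 did with the first deposited factor of unwanted variation (r = -0.35), GSR with the second (0.36) and TXNRD1 with NCBP1 (-0.37), and the part of these measures in the results was not tested.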

How the data were processed

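RNA from 48 HEK293T samples (4 arms, 3 times, 4 replicates) was measured by stranded, paired-end RNA-seq after depletion of ribosomal RNA. For each time the authors deposited counts per gene without normalization, which were the values tested, and log2 CPM, which were used in an alternative. They also deposited 2 factors of unwanted variation (RUV) per library, a score whose method is not given in the sources used here, and a table of values adjusted for them, which was not used. The reporting summary lists cutadapt, TopHat and Cufflinks, the submitters' processing notes name bcl2fastq, and the aligner settings, genome build and treatment of reads shared between genes are not given in the sources used here. Gene symbols were matched for 14648 of 14685 identifiers, and 14556 had exon lengths in GENCODE 29.

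Counts were fitted in R 4.3.3 with edgeR 4.0.16 (TMM, filterByExpr, which removed 0 genes, robust dispersions and quasi-likelihood F-tests). The 16 libraries of a time were fitted together for comparisons between arms, and all 48 for later times and interactions. Benjamini-Hochberg adjustment ran over all 14685 genes within each comparison, and an adjusted p of at most 0.05 was called; 95% confidence intervals came from the F-test's standard error. Groups follow the sample labels. The members, the 6 pathway lists and the tests were chosen with earlier results of these data known. Named beside the members were pathway genes that moved one way against 2 or more controls at a time, the gene of each list and time with the smallest adjusted p, and the 2 genes closest to each member by Pearson r. The alternatives were DESeq2 1.42.0, scaling by RLE, keeping all low counts, a block for the replicate number, covariates from the RUV scores, only the 2 arms compared, limma-trend (limma 3.58.1) on the deposited log2 CPM, NCBP1 left out of the library size, and each library left out in turn. The fits were tested on simulated data. Tables and figures were made in Python 3.11.15.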

Additional observations from a re-analysis of the deposited data

Results flagged for a closer look

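Each of the 96 groups of 4 libraries (8 members, 12 arms by time) was tested for a library that stood apart by Dixon's test, in which the gap to the nearest library is divided by the group's range on the log2 scale. In 9 groups this ratio was above the 95% critical value, where chance alone flags about 1 in 20 groups. The largest ratio was that of KEAP1 with DMSO at 12 h (0.94), where replicate 1 read 20.1 CPM and the other libraries 16.5 to 16.7 CPM. GCLM with DMSO was flagged at 12 h (0.895), with replicate 3 at 56.9 CPM above 42.6 to 43.9 CPM, and at 3 h (0.877), with replicate 3 at 48.4 CPM below 54.0 to 54.9 CPM. Without DMSO replicate 3 at 12 h, GCLM at 12 h passed the test of T-REX against DMSO, being higher under T-REX. NFE2L2 with DMSO at 3 h had a ratio of 0.881 (replicate 4, 96.7 CPM, above 91.8 to 92.4), and HMOX1 under T-REX at 3 h 0.861 (replicate 1, 22.4 CPM, below 26.3 to 27.0). TXNRD1 with probe alone at 12 h had 0.853 (replicate 3, 77.0 CPM, below 80.2 to 80.8). NQO1 with light alone had 0.853 at 12 h (replicate 4, 4.29 CPM, above 3.44 to 3.55) and 0.831 at 3 h (replicate 4, 2.86 CPM, below 3.67 to 3.86). GCLM with probe alone at 6 h had 0.84 (replicate 3, 56.5 CPM, above 52.2 to 52.9).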

How the results depend on the processing

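With the RUV factors as covariates, the members called between T-REX and the 3 controls rose to 3 at 3 h, 5 at 6 h and 5 at 12 h (0, 0 and 1 in the reported fits), those between controls to 2, 4 and 3 (1, 0 and 1) and the interactions to 5 (0), and the cause was not tested. The shares of all genes called under the alternative settings are not given here, so the counts of members under them cannot be set against a background. DESeq2 gave 2, 1 and 2 calls between controls at 3, 6 and 12 h and 1 interaction. Between controls at 12 h the count was 0 with the replicate block, with only the 2 arms compared, with limma-trend and with NCBP1 left out of the library size. Under the other settings these counts, and all those of later times (13 to 25, reported 18), were within 1.5 times of the reported ones. Leaving out 1 library at a time gave 0 to 0 calls of T-REX at 3 h, 0 to 0 at 6 h and 1 to 2 at 12 h. Between controls it gave 0 to 1, 0 to 1 and 0 to 2, over later times 15 to 19, and for interactions 0 to 1. The 2 at 12 h came without DMSO replicate 3, and 1 interaction passed without T-REX replicate 2 at 3 h, T-REX replicate 4, light alone replicate 3 or DMSO replicate 2 at 6 h, or DMSO replicate 3 at 12 h.

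Pairing by replicate number differed between the times and was not used in the reported fits. Same-numbered libraries of different arms correlated above 0.1 in 12, 11 and 8 of 24 pairs at 3, 6 and 12 h (median r 0.069, -0.0094 and 0.0032). Of 16 libraries, 4, 9 and 2 were closest to their own number, the most at 6 h. With the replicate number as a block, 0, 0 and 1 members were called for T-REX, 1, 0 and 0 between controls, 13 over later times and 0 in interactions. The 5 lost over time were HMOX1 and NFE2L2 with light alone at 6 h (-0.42 and 0.07, adjusted p = 0.0521 and 0.627) and, at 12 h, GCLC under T-REX and with light alone (adjusted p = 0.118 and 0.161) and GCLM with light alone (adjusted p = 0.0639). Depth limits NQO1, with 61 counts in its lowest library, and at 3 h KEAP1 is limited by the spread between replicates.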
